A study of Drosophila melanogaster with 3 samples.

Results

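The exon junction complex is a protein assembly that splicing leaves on messenger RNA just upstream of the junction between joined exons. Its genes in Drosophila melanogaster were examined here for peaks of CG10274, a zinc-finger protein recovered with its DNA by chromatin immunoprecipitation and sequencing (ChIP-seq). The 5 genes are tsu, mago, eIF4A3, btz and RnpS1, taken by name from 13968 protein-coding genes among 18277 annotated genes. A gene was given a peak when the peak's summit, its highest point, lay in the gene body or within 2000 bp of any of its transcription start sites (TSSs). The group was chosen by the high score of the combined peak at tsu, a value of these same lists, so scores and ranks are given as a description and no test was made.

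ChIP-seq was done on pooled male and female whole embryos, aged 0 to 24 h, of 1 transgenic fly line that stably expresses CG10274 with GFP at its C-terminus, using an antibody against GFP on chromatin sonicated to 200 to 800 bp. There were 3 biological replicates of this 1 group and no second genotype, treatment or stage, and the control data set that the labels name was not analysed here. Each replicate had a ranked list of 30000 candidate entries that the authors describe as peaks and background, and the pooled replicates had another list of 30000. A combined list held the 2988 peaks kept by the authors' irreproducible discovery rate (IDR) threshold. These are the 2988 highest-scoring pooled entries, and 2292 of them overlapped an entry in all 3 replicate lists, so a combined peak need not be in each replicate. The labels do not say whether untagged CG10274 was also present, and a site used in few of the embryo's cells cannot be told apart from a weakly used site in many.

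Within the complex, the proteins of tsu (Y14 in other animals) and mago (Magoh) form a pair that clamps the RNA helicase eIF4A3 on the RNA, and btz (Barentsz) completes the core. RnpS1 is a peripheral protein that links the complex to splicing. The fly genes are known for their part in carrying oskar mRNA to the posterior pole of the oocyte, through tsu, mago, eIF4A3 and btz, and for correct splicing of transcripts such as those of the MAP kinase gene rl and of piwi, through tsu, mago, eIF4A3 and RnpS1.

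Sequences are shown for places where the lists or the letters differ between the genes: the gap before eIF4A3, the strongest pooled summit of RnpS1, and the summits of 3 high-ranking combined peaks that carry the same word as the tsu peak. All come from the RefSeq release 6 genome and are written 5′ to 3′ in lower case, and the sequences at tsu and mago are not shown here. The gap between CG11698 and eIF4A3 (chr3R:8313098-8313207, plus strand, the strand of eIF4A3) has in capitals TATCGATA, the DNA replication-related element that is known as the site of the factor DREF. The summit upstream of RnpS1 (chr3R:9551350-9551450, plus strand) has in capitals every match to GAGAG on either strand, a repeat of the kind that the GAGA factor is known to bind. In the other 3, the 101 bp at the summits named for CG1607 (chr3R:31384236-31384336, minus strand), Aldh (chr2L:9388183-9388283, minus strand) and CG9743 (chr3R:30203329-30203429, plus strand), capitals mark CCCTAC, read on the strand that shows it in this direction.
eIF4A3 upstream gap: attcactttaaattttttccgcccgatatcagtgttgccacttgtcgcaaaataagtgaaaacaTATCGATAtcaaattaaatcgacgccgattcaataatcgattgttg
RnpS1 pooled summit: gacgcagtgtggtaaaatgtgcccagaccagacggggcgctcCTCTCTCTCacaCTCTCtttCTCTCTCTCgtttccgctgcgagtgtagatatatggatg
CG1607 combined summit: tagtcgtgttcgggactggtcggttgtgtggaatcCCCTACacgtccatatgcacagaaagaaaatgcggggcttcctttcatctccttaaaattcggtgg
Aldh combined summit: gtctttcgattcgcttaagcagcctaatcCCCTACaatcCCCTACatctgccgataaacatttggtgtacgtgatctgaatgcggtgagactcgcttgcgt
CG9743 combined summit: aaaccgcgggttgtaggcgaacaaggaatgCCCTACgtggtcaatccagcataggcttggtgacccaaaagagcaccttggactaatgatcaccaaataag

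Only tsu, 1 of the 5 genes, had a combined summit, against 19.5% of all protein-coding genes (2730 of 13968). All but btz are shorter than the median protein-coding gene (2164.5 bp). The space searched was close to the usual one: 4001 bp for 4 of them and 5085 bp for btz, against a median of 4274 bp over protein-coding genes. Among the 8765 protein-coding genes no longer than btz, the longest of the 5 at 3085 bp, 13.0% had a combined summit. A count of 1 in 5 is close to either share, so the count is no result about the group.

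Other rules applied to the combined list counted the same gene. It was tsu within 500 bp of a TSS (11.1% of protein-coding genes), within 1000 bp or in the gene body (16.7%), by nearest TSS only (13.0%), with peak intervals in place of summits (20.3%) and in the stronger 1494 combined peaks (11.4%). It was also tsu when the peak had to be among the top entries of replicates 2 and 3 (11.8%), 1 and 3 (10.8%) or 1 and 2 (14.0%). The 300 strongest combined peaks lie at 2.73% of protein-coding genes, and tsu is among these by the choice of the group. Its count there, in the stronger peaks and among the top entries of the replicates is therefore read as nothing more.

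The tsu gene (FBgn0033378, arm 2R, 9110799 to 9111578, plus strand) is the shortest of the group at 780 bp and has 1 transcript with 1 intron of 89 bp (9110957 to 9111045). Its main combined peak covered 801 bp (chr2R:9110639-9111439), which is longer than the gene and takes in the TSS, the intron and most of the coding exons. The summit at 9111041 lay 242 bp downstream of the TSS, inside the intron, 85 bp past the end of exon 1 and 5 bp before exon 2. The upstream neighbour is Pgm2a, a phosphoglucomutase gene on the minus strand whose TSS is 1081 bp away.

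At the tsu intron peak the authors' score stood at 2458 (replicate 1), 873.9 (replicate 2) and 811.9 (replicate 3). Scores were not scaled between lists, so each is also given as a relative score, in units of the median score that the 2292 combined peaks listed by all 3 replicates had in that list. Its relative scores were 21.9, 11.7 and 14.4 in replicates 1, 2 and 3, with a mean of 15.98 ± 5.26 (SD, n = 3). Replicate 1 was the highest on both scales, and no replicate came near the median peak.

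The rank was steadier than the score. The tsu intron summit stood at rank 33 in replicate 1, 28 in replicate 2 and 27 in replicate 3, each out of 30000, and at rank 28 of 2988 in the combined list, with a score of 4046. Its SD over mean was 0.329, against a median of 0.227 over the 286 of the 300 strongest combined peaks that were in all 3 lists (quartiles 0.143 to 0.371), so its spread was within the middle of that range.

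**Figure D1:**
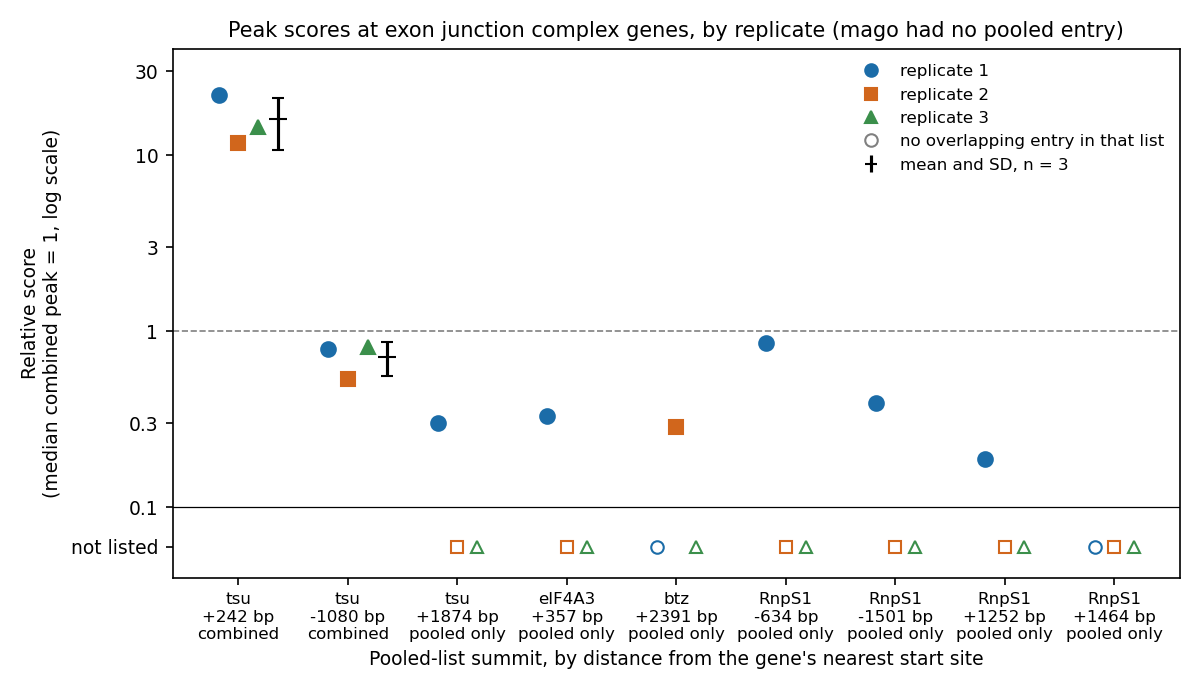
Relative score (log scale, median combined peak = 1) in each replicate at the 9 pooled-list summits of the exon junction complex genes, with mean and SD over 3 replicates where all 3 lists have the site and open symbols where a list has no overlapping entry. The tsu summit at +242 bp lies between 11.7 and 21.9, the tsu summit at −1080 bp between 0.534 and 0.812, and each other site has an entry in at most 1 replicate.

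The 3 replicates placed the tsu summit within 7 bp of each other, at +243, +236 and +242 bp from the TSS in replicates 1, 2 and 3. All 3 positions fall in the 89 bp intron. Over the 2292 combined peaks in all 3 lists, the outermost replicate summits were a median of 53 bp apart (quartiles 26 to 101), and 4.10% of them were as close as or closer than at tsu. Strong peaks have closer summits, with a median of 23.5 bp among 286 of the 300 strongest, of which 10.8% were at or below 7 bp.

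The interval called at tsu was wide in every list but differed in length, at 909 bp in replicate 1, 578 bp in replicate 2 and 519 bp in replicate 3. The combined interval of 801 bp compares with a median of 404 bp over all combined peaks (98.6% at or below 801 bp) and of 385.5 bp among the 300 strongest (87.7% at or below). Replicate 1 alone listed another summit in the same interval, at +450 bp in the coding part of exon 2, with a relative score of 2.32 and rank 382.

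The downstream position is uncommon. Of the 1316 combined summits within 500 bp of a protein-coding TSS, the median lay at −125 bp, that is upstream of it (quartiles −243 to −30 bp), 94.5% were at or before +242 bp, and 84 (6.38%) lay 200 to 500 bp downstream. The base composition at the summit was also far from the middle: 56.4% of the 101 bp were G or C, against a median of 34.7% over the 2988 combined summits (quartiles 28.7% to 42.6%), with 97.3% of them at or below tsu. Among the 300 strongest combined peaks the share at or below tsu was 95.7%. The 101 bp at tsu are not all intron, since coding sequence of the next exon starts 5 bp after the summit. Whether this bears on the base composition was not tested.

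**Figure D2:**
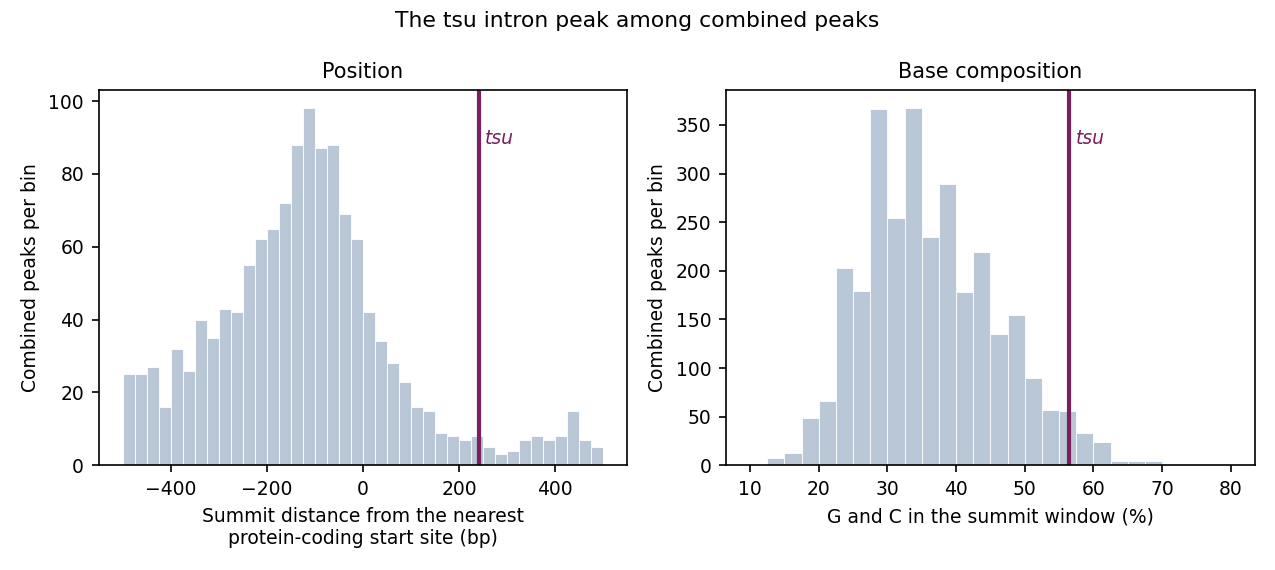
The tsu intron summit (vertical line) among combined peaks, by distance from the nearest protein-coding TSS for the 1316 summits within 500 bp (left) and by percent of G and C in the 101 bp at the summit for all 2988 (right), both as peaks per bin. The tsu summit stands at +242 bp and 56.4%, to the right of most combined peaks in both.

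The other combined summit given to tsu belongs by position to its neighbour. It lay at 9109719 (interval chr2R:9109517-9109920), at −1080 bp from the tsu TSS and −1 bp from the Pgm2a TSS. Relative scores were 0.797, 0.534 and 0.812 in replicates 1, 2 and 3 (mean 0.714 ± 0.156, SD, n = 3). These values are below the median combined peak in all 3 replicates and do not overlap those of the intron summit. In the combined list it had a score of 171.8 and rank 2029, and the intron peak's score was 23.5 times as high. No further combined summit lay within 10000 bp of the tsu intron summit.

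Nothing else around tsu was shared between replicates. The pooled list added a summit at +1874 bp, in a coding exon of the convergent downstream gene Mys45A, with a score of 50.7 and rank 13842 of 30000, and an overlapping entry only in replicate 1 (relative score 0.302). Replicate 2 alone had an entry at −1378 bp, in the 5′ UTR of Pgm2a, with a relative score of 0.197 and rank 26925.

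The remaining members had entries in the pooled or replicate lists but none in the combined list. Over all pooled entries 4 of the 5 genes had a summit, against 69.0% of protein-coding genes, so an entry in the pooled list says little by itself. By replicate, 4 of the 5 genes had an entry in replicate 1 (65.2% of protein-coding genes), 2 in replicate 2 (71.4%) and 1 in replicate 3 (55.5%). Among as many top entries as the combined list has, the counts were 2 in replicate 1 (19.3%), 1 in replicate 2 (18.9%) and 1 in replicate 3 (16.8%). Only tsu had an entry in all 3 replicates.

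**Figure D3:**
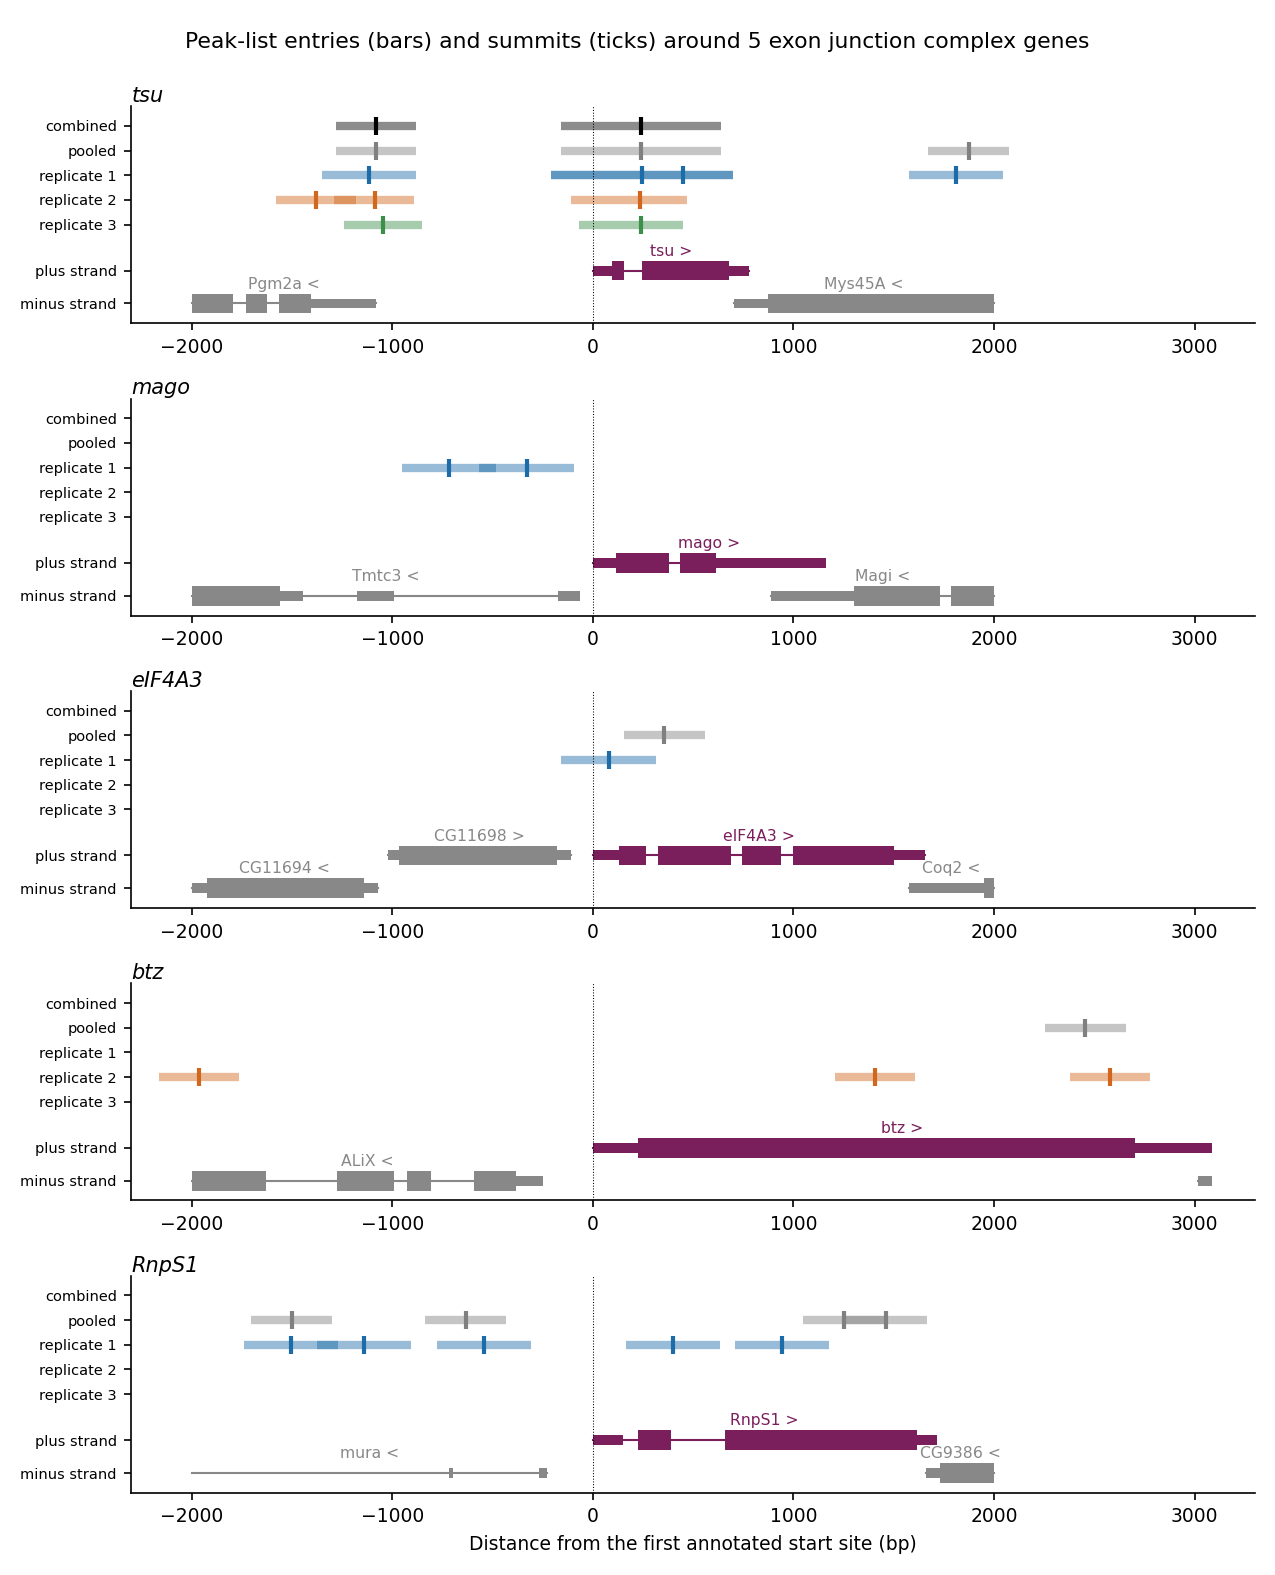
Entries (bars) and summits (ticks) of the combined, pooled and 3 replicate lists against the annotated exons (thick, coding, or thinner, untranslated) and introns (lines) of the 5 exon junction complex genes and their neighbours, by distance in bp from each gene's first annotated TSS. The transcripts of btz are drawn over each other, so exons of some cover introns of others. At tsu all 5 lists have an entry over the intron, while at mago, eIF4A3, btz and RnpS1 no site has entries in more than 1 replicate.

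The partner of tsu in the core, mago (FBgn0002736, arm 2R, 21128577 to 21129737, plus strand), is 1161 bp long with 1 intron of 58 bp, and shares its upstream gap of 67 bp with the divergent gene Tmtc3. It had no combined or pooled summit and none in replicates 2 and 3. Replicate 1 had entries at −717 bp (relative score 0.174, rank 26250) and −330 bp (0.165, rank 27972), both in an intron of Tmtc3. The pair thus differed in the pooled list, where the first place of tsu was set by the choice of the group. An entry there was held by 69.0% of protein-coding genes, so its lack at mago says little by itself.

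The helicase gene eIF4A3 (CG7483 in the annotation, FBgn0037573, arm 3R, 8313208 to 8314864, plus strand) is 1657 bp long and has 3 introns of 60, 55 and 61 bp. Its pooled summit lay at +357 bp in a coding exon, with a score of 52.1, rank 13082 and a −log10 q-value of 0.415. Replicate 1 had an overlapping entry, but with its summit shifted by −278 bp, to +79 bp in the 5′ UTR (relative score 0.330, rank 9764, −log10 q-value 1.80), and replicates 2 and 3 had none. Like tsu, eIF4A3 has no divergent TSS within 1000 bp.

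The last core gene, btz (FBgn0045862, arm 3R, 27700361 to 27703445, plus strand), has 4 transcripts from 3 TSSs and a divergent neighbour, ALiX, 251 bp away. Distances are given here from the nearest of these TSSs, whereas the map of entries counts from the first of them. Its pooled summit lay at +2391 bp (+2455 bp on the map) in a coding exon, with a score of 38.8 and rank 23306, the weakest of the 9 pooled summits in the group. Replicate 2 had an entry overlapping it, with the summit at +2513 bp (relative score 0.288, rank 10929), and others at −1962 bp in a coding exon of ALiX (0.246) and at +1345 bp (0.194). Replicates 1 and 3 listed nothing at btz.

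RnpS1 (FBgn0037707, arm 3R, 9552034 to 9553747, plus strand) is 1714 bp long with introns of 76 and 268 bp, and lies 228 bp from the divergent gene mura, which encodes a RING ubiquitin ligase. It came nearest to the combined list after tsu. A pooled summit at −634 bp from RnpS1 (chr3R:9551198-9551601, summit 9551400) had a score of 109.4 and rank 3733, against 128.156 at rank 2988 for the last combined peak and 128.149 for the first pooled entry outside it. This site also belongs by position to the neighbour, since it lies in an intron of mura, at −62 bp from an internal mura TSS. Replicate 1 had an entry there (relative score 0.858, rank 1720) with its summit 92 bp away, and replicates 2 and 3 had none, so the site was close to the Pgm2a site in replicate 1 and unlike it in the others. The −log10 q-value at this mura-side site was 2.55 in the pooled list. In replicate 1 it was 3.71, the highest in that list, shared by 2551 entries.

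Further entries at RnpS1 were weaker. Pooled summits at −1501 bp, +1252 bp and +1464 bp had ranks 14032, 15235 and 15997. Replicate 1 had overlapping entries for the sites at −1501 bp (relative score 0.393) and +1252 bp (0.188, with the summit shifted by −310 bp), and more at −1139 bp (0.332) and +400 bp (0.157). Of the 5 genes RnpS1 had the most entries in replicate 1 and none in replicates 2 and 3.

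**Figure D4:**
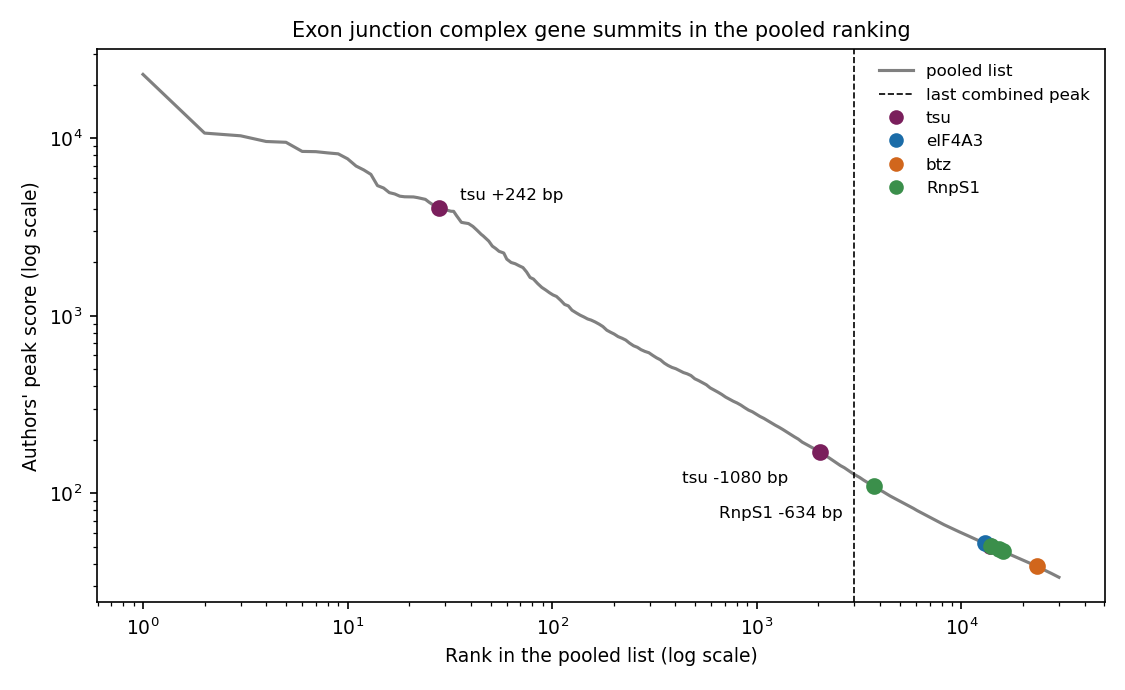
Authors' score against rank in the pooled list of 30000 (both log scales; grey line), with the 9 pooled summits of the exon junction complex genes and a dashed line at rank 2988, the last combined peak. The tsu intron summit at rank 28 is apart from the others, the tsu summit at −1080 bp (rank 2029) and the RnpS1 summit at −634 bp (rank 3733) lie on either side of the dashed line, and the rest are at rank 13082 or beyond.

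By best pooled rank the order of the members was tsu (28), RnpS1 (3733), eIF4A3 (13082), btz (23306) and mago (no entry). Below tsu no member had a site in more than 1 replicate, so no spread over replicates is available to separate neighbours in this order. Divergent gene pairs, the arrangement of mago, btz and RnpS1, are not short of peaks in the series: 26.7% of the 4913 protein-coding genes with a TSS of the other strand up to 1000 bp upstream had a combined summit. None of those 3 members did, a count too small to set against that share. At tsu the head-to-head neighbour Pgm2a, at 1081 bp, lies just past this limit.

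The 5 protein-coding genes whose combined peaks were most like that of tsu were found by Euclidean distance in log2 relative score over the 3 replicates, among 1948 genes. Jheh1, a juvenile hormone epoxide hydrolase gene also on arm 2R, was nearest (distance 0.18), with relative scores of 20.3, 12.8 and 14.1 in replicates 1, 2 and 3 and rank 29, next after tsu. The kinase gene fray and CG7694 followed (0.26), sharing a peak with 22.9, 12.6 and 16.8. CG43736 (0.34) had 24.5, 9.56 and 13.9, and numb (0.37), a Notch pathway regulator, had 27.1, 10.8 and 16.2. In all of these peaks replicate 1 was the highest and replicate 2 the lowest, the same order as at tsu.

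Against +242 bp at tsu, all 4 summits lay upstream of the gene's nearest TSS, at −142 bp for Jheh1, −212 bp for fray and CG7694, −570 bp for CG43736 and −753 bp for numb. As at tsu, the shared summit of fray and CG7694 and that of numb were in an intron, while those of Jheh1 and CG43736 were outside the gene. In base composition Jheh1 had the same share of G and C as tsu, 56.4%, and the others had 28.7% to 38.6%. The values within this set are a match in score by construction, so the likeness in score is not a result.

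A word search asked whether the tsu summit carries letters found at other strong peaks. CCCTAC, searched on both strands like the other words here, was picked after the data were seen, from 6-letter words with at least 3 G or C. Among these, its share at the summits of the 300 strongest combined peaks off arm 2R exceeded that in flanks 500 bp away by the most percentage points. Without this limit on letters the word picked was AAATAT, at 29.5% of all combined summits and 15.96% of their flanks, and the tsu summit does not hold it. CCCTAC occurred in 14.0% of the 300 summits, each read over 101 bp, and in 2.33% of their flanks. In peaks not used to pick it, the share was 4.99% at the 2688 combined summits outside those 300. At the 552 of these on arm 2R, the tsu peak included, it was 6.16%, against 2.17% of the flanks on that arm. At pooled summits outside the combined list the share was 1.99%, and 3.51% of the 300 bp promoters of protein-coding genes held it.

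The word occurred 1 time in the 4001 bp searched at tsu, at 9111029 to 9111034 on the plus strand, inside the intron. Its centre was 9.5 bp from the summit, against a median of 22.5 bp (quartiles 11.75 to 34.25) in the 42 peaks with the word among the 300. At Jheh1 the summit also held 1 match, and the summits of fray with CG7694, CG43736 and numb held none. The printed summits with the word rank above tsu: CG1607 at rank 13 (relative scores 30.9, 20.4 and 24.1), Aldh at rank 15 with 2 matches (27.6, 15.95 and 19.0) and CG9743 at rank 16 (26.5, 14.4 and 17.5). Combined summits with the word were richer in G and C, with a median of 43.6% in the 176 with it and 34.7% in the 2812 without it. Whether the word or the base composition bears on the tsu score was not tested.

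Elsewhere in the group CCCTAC stood apart from any entry. A match lay at −1485 bp from mago, in the 5′ UTR of Tmtc3, and another at −273 bp from btz, in the 5′ UTR of ALiX, and no list had an entry over either. There was no match in the windows of eIF4A3 and RnpS1, which says only that these letters are not in those windows. The mura-side summit upstream of RnpS1 held 7 overlapping matches to GAGAG, as printed, a word found at 12.4% of pooled summits outside the combined list, 9.64% of combined summits and 15.2% of the flanks of combined summits, each over 101 bp, and in 29.7% of promoters over 300 bp.

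The genes that work with the complex were read in the same way, from a list of 22 by role. Of these, 3 (13.6%) had a combined summit, against 19.5% of protein-coding genes. They were Pym, whose protein takes the complex apart, Smg5, a nonsense-mediated decay factor, and Hel25E, the helicase of mRNA export known as UAP56 in mammals. By role the counts were 1 of 1 for disassembly, 1 of 6 for decay, 1 of 4 for export, 0 of 5 for oskar mRNA localization, 0 of 4 for splicing-coupled factors and 0 of 2 for the transcripts rl and piwi.

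Only the Smg5 peak was nearest to the gene's own TSS. It lay at −73 bp from a TSS of Smg5 and within the 5′ UTR of a longer transcript, with relative scores of 0.683, 1.58 and 1.86 in replicates 1, 2 and 3 (mean 1.37 ± 0.613, SD, n = 3) and rank 794. Here replicate 1 was the lowest, unlike at tsu. The Pym summit lay at −1829 bp from Pym and +156 bp from the TSS of bgcn, a germline differentiation gene, with 1.61, 2.10 and 2.27 (mean 1.99 ± 0.344, SD, n = 3) and rank 461.

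At Hel25E the summit lay at −1015 bp, and at +229 bp from the TSS of the lamin gene Lam. Its relative scores were 1.48, 1.17 and 1.02 (mean 1.22 ± 0.237, SD, n = 3), with rank 829. In every replicate all 3 partner peaks were below the tsu intron peak, whose lowest value was 11.7. The group was chosen by the high score of that tsu peak, so this difference is no result about the partners. Within 500 bp of a TSS, 1 of the 22 genes had a combined summit, Smg5, against 11.1% of protein-coding genes.

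Outside the combined list the partners ran through the pooled ranking. Tm1, a tropomyosin needed for oskar localization, came closest at rank 3077, followed by the splicing factor Acn at 3663 and the decay factor Upf3 at 3734. Tm1 is 30560 bp long and had 14 pooled summits, against 3463 bp for Acn and 1922 bp for Upf3. A longer gene offers more space for an entry, and these ranks were not adjusted for length. The oskar gene osk was at 18562 and piwi at 6206. Pnn, Upf1, Nxt1 and rl had no pooled entry, and 18 of the 22 had one, against 69.0% of protein-coding genes.

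**Figure D5:**
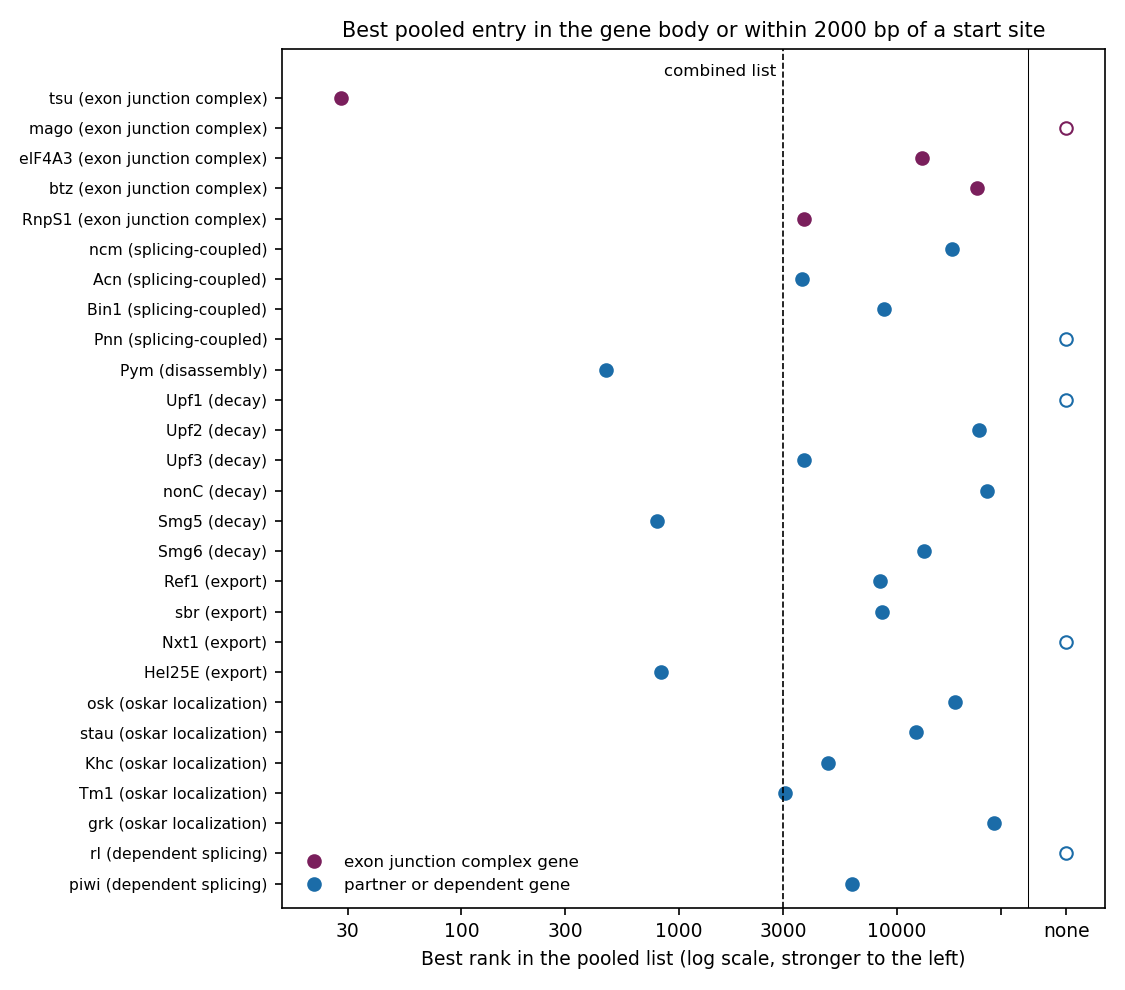
Best rank in the pooled list (log scale, stronger to the left) for the 5 exon junction complex genes and 22 partner or dependent genes, with open symbols for genes without a pooled entry and a dashed line at the last combined peak. Left of the line are tsu at rank 28 and then Pym (461), Smg5 (794) and Hel25E (829).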

How the data were processed

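The labels describe 3 biological replicates of 1 group. The peak lists are in the narrowPeak format for build dm6, and the dm3 lists were not used here. The authors' peak score (column 7) has no fixed range and was not scaled between lists, and the −log10 q-value (column 9) was deposited beside it, so both serve only to describe and rank. Ranks follow the score, because 2266 combined peaks share the highest −log10 q-value, 3.66. Which aligner and peak caller were used is not given in the sources used here. Depth per replicate is unknown, since scores give no read counts.

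Summits are column 2 plus column 10, printed 1-based. Genes came from Ensembl release 115 (BDGP 6.54), and eIF4A3 was matched to CG7483 by a RefSeq synonym. A replicate's relative score is the score of its best entry overlapping the peak by at least 1 bp, divided by that replicate's median (112.5, 74.9 and 56.3 in replicates 1, 2 and 3). The assignment was tested on simulated data: 200 of 200 planted summits were recovered among 13968 genes. Python 3.11.15 was used with numpy 2.4.6, pandas 2.3.3 and matplotlib 3.10.9.

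Members, partner list and settings were chosen with earlier results of these data known. Named are the members, partners with a combined summit, genes with a TSS nearer to a member's combined summit, the nearest neighbours, and the 5 genes most like tsu. Partners named by pooled rank, and the peaks with the word, were chosen after their values were seen. Alternatives changed the assignment, overlap, threshold, list, scaling and replicates.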

Additional observations from a re-analysis of the deposited data

How the results depend on the processing

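The count of members with a combined summit was 1 under each assignment, overlap and threshold tried (summits within 500 bp of a TSS, within 1000 bp or in the gene body, nearest TSS only, intervals in place of summits, the stronger 1494 peaks), and 1 to 1 when each replicate was left out in turn. In each the gene was tsu. The group was chosen by the high score at tsu, so its place in the stronger peaks and with a replicate left out is no separate support. Over all entries of the pooled list it was 4. The count of partner genes was 3 with intervals, with the stronger peaks and with each replicate left out (3 to 3), and 1, Smg5, within 500 bp of a TSS, within 1000 bp or in the gene body, and with the nearest TSS only. The mean relative score of the tsu intron peak ran from 13.1 to 18.1 with a replicate left out, and was 16.7 with each replicate scaled over its own combined peaks and 15.98 with entries required over the summit. The summit position was 236 bp in replicate 2, against 242 bp in the combined list. Of the 26 alternative values, 21 kept their value, counts to within 1.5 times and scores or positions to within 1 SD of the replicates, and 5 moved. Leaving out 1 of 3 replicates cannot shift their mean by 1 SD, so for the mean scores with a replicate left out this label was fixed in advance. It was also fixed for the summit position in the pooled list, because every combined peak is an entry of that list. No paired analysis was possible because there is only 1 group. With no read counts, a site that is not listed cannot be told apart from a site below a list's limit, and the control's part in the scores was not tested.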

Other observations

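The start sites of the members differ in their letters although 4 of the 5 have no combined peak. In the 300 bp around the first TSS, mago held 2 matches to TATCGATA and eIF4A3 held 1, while tsu, btz and RnpS1 held none, against a match in 9.36% of protein-coding promoters. The same word was at 1.24% of combined summits, against 0.422% of pooled summits outside the combined list and 0.351% of flanks. G and C made up 36.0% of the promoter of tsu, 45.0% of that of mago, 36.0% of that of eIF4A3, 35.3% of that of btz and 31.0% of that of RnpS1, against a median of 38.0% over promoters (quartiles 33.3% to 44.3%). The promoter of tsu lies below the 56.4% in the 101 bp at its intron summit, which reach into coding sequence of the next exon. AAATAT, the word of any composition whose share at the strong summits exceeded that in flanks by the most percentage points, was at 29.5% of combined summits, against 15.96% of their flanks and 17.0% of pooled summits outside the combined list, and was not found in the 101 bp at the tsu summit.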
